A study of Rattus norvegicus with 17 samples.

Results

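The genes described here encode the pore-forming and auxiliary subunits of voltage-gated sodium channels, voltage-gated calcium channels and hyperpolarization-activated (HCN) channels. They were chosen by symbol alone, as Scn, Cacna1, Cacna2d, Cacnb and Hcn genes of the count table that carry a subunit number or letter. For Cacna1 the letters a to i were taken, which leaves out Cacna1s, a gene listed with the partners below. By this rule 35 of 34322 genes were chosen. These were 10 sodium channel alpha subunits, 4 sodium channel beta subunits, 9 calcium channel alpha1 subunits, 4 alpha2delta subunits, 4 calcium channel beta subunits and 4 HCN genes. RNA was sequenced from the hippocampus of 17 adolescent Long-Evans rats aged 36 to 38 days. The ET rats were offspring of a dam fed a liquid diet with 6.7% ethanol from gestational day 0 to 20. The PF rats came from a pair-fed dam that received control liquid diet without ethanol over the same days, and the AD rats from a dam with chow ad libitum. Each diet group came from 1 litter, so litter and diet cannot be told apart, and p-values measure only the spread between littermates. All comparisons used the 14 samples of the study's final analysis (4 ET, 5 PF and 5 AD), and the 3 samples left out, ET replicate 2, AD replicate 4 and the PF male called animal 11f6, are given as values only.

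In a neuron, sodium channel alpha subunits form the pore that carries the rising phase of the action potential, and the beta subunits are single-pass membrane proteins that adjust gating and anchoring. Calcium channel alpha1 subunits form pores that open at strong depolarization (the L, P/Q, N and R types) or close to rest (the T type), while alpha2delta and beta subunits bring those pores to the membrane. HCN channels open on hyperpolarization and carry the mixed cation current that sets resting potential and rhythmic firing, and the dendrites of hippocampal pyramidal cells are a well-known site of this current.

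Between 11392019 and 17498392 fragments were counted on genes per sample of the 14, with a median of 13706083. Values are given as normalised CPM, that is, counts scaled to a common library size after a correction for composition, and they are not corrected for transcript length, so levels are compared between samples and not between genes. Some libraries stood apart before any channel gene was considered. AD replicate 6 held 1159 CPM summed over 10 pineal and photoreceptor genes, against 6.35 to 16.4 CPM in the other 13. The 3 samples left out held 7368 to 9349 CPM summed over 10 choroid plexus genes, where the 14 ranged from 8.05 to 1229 CPM. The Y-linked genes of 2 AD libraries went against their labelled sex, so sexes were compared in ET and PF only. The neuron markers were present throughout, with a sum of 6373 to 7195 CPM in the 14 samples.

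All but 4 of the 35 channel genes averaged at least 1 CPM over the 17 libraries. The exceptions were Scn10a and Scn11a, sodium channels known from sensory neurons of the dorsal root ganglion, Scn7a, the atypical sodium channel that senses salt, and Cacna1f, the L-type channel of photoreceptor synapses. Scn10a lay between 0.0276 and 0.262 CPM in the 14 samples and Scn11a between 0.0239 and 0.676 CPM. For scale, 3 counts, the limit that a count of 0 allows for, corresponded to 0.171 to 0.276 CPM depending on the library, so these genes were at or near that limit in most samples. Counts carry no molecular identifiers, so this limit covers counting error only.

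**Figure D1:**
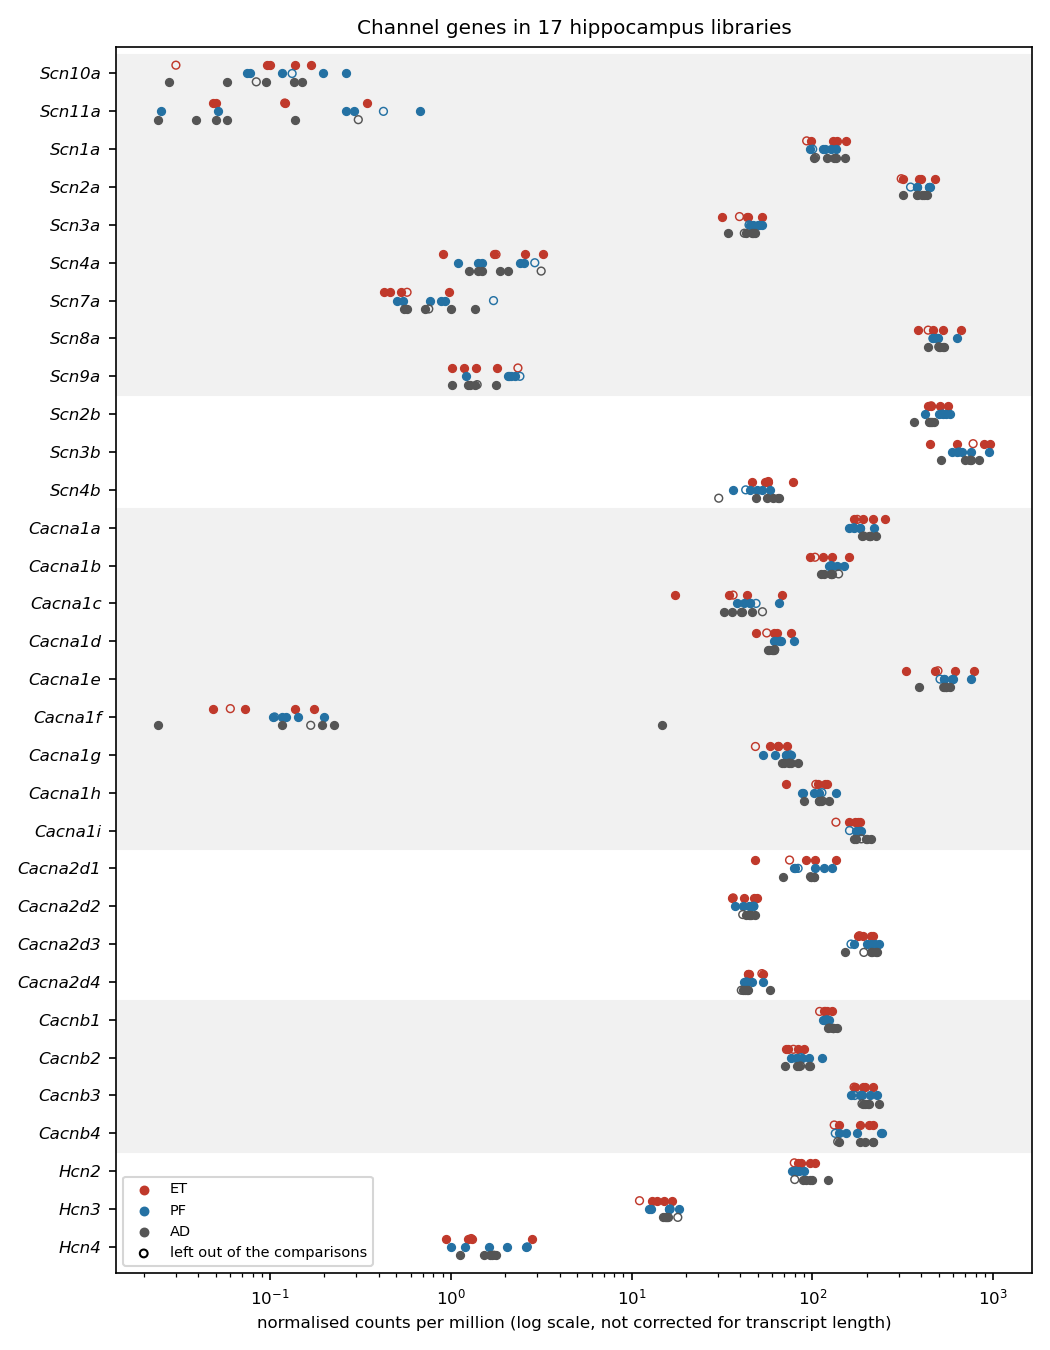
Normalised CPM (log axis, not corrected for transcript length) of 32 channel genes in each library. Each point is 1 library, coloured by diet group, open where it was left out of the comparisons, and Cacna1f shows 1 AD library at 14.8 CPM with the other 16 at or below 0.225 CPM.

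No channel gene passed the test of edgeR in any of the 3 diet comparisons. Genes with few counts were removed before each test, which kept 32 of the 35 genes for ET against PF and 31 for each comparison with AD. Scn10a, Scn11a and Cacna1f were removed in all 3 comparisons, and Scn7a in the comparisons with AD. The tests were edgeR's quasi-likelihood test with Benjamini-Hochberg adjustment over all genes tested, under the study's threshold, which asks for an adjusted p below 0.01 and a log2 fold change beyond 1.5 in either direction, and under a second rule of an adjusted p below 0.05 with no fold minimum.

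In ET against PF, the comparison that asks what ethanol in the liquid diet adds, 0 of 32 channel genes passed the study's threshold, which 2.17% of the 16068 genes tested passed. At an adjusted p below 0.05 the count was also 0 of 32, against 4.13% of all genes. DESeq2 called 0 of 32 by either rule, against 4.62% of all genes at an adjusted p below 0.05. At an unadjusted p below 0.05 edgeR gave 1 of 32 channel genes (3.12%), where 11.9% of all genes lay below it, and DESeq2 gave 0. The log2 fold changes ran from -0.53 to 0.74 with a median of -0.05, and the median size was 0.10 over the channel genes and 0.09 over all genes tested. The 95% interval lay inside the study's fold threshold for 31 of the 32 genes and within 2-fold for 29 (90.6%), compared with 96.0% and 92.0% of all genes.

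In ET against AD, 0 of 31 channel genes passed either rule in edgeR or in DESeq2. In edgeR each rule was passed by 0.0127% of 15749 genes, and DESeq2 called 0.0698% at an adjusted p below 0.05. An unadjusted p below 0.05 was reached by 1 of 31 (3.23%) in edgeR, 1 of 31 in DESeq2, and 2.74% of all genes in edgeR. The 95% interval of edgeR lay within 2-fold for 29 of 31 genes (93.5%), compared with 95.9% of all genes, and one of those outside was Scn4a, the skeletal muscle sodium channel.

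In PF against AD, which contrasts the control liquid diet with chow, 0 of 31 channel genes passed the study's threshold, against 2.05% of 15960 genes, and 0 of 31 passed an adjusted p below 0.05, against 5.17%. Here 7 of 31 genes (22.6%) had an unadjusted p below 0.05, 3 of them with higher and 4 with lower counts in PF, where 16.4% of all genes did. DESeq2 called 3 of 31 at an adjusted p below 0.05, Hcn2 and Cacnb1 among them, with lower counts in PF each time, and that tool called 5.88% of all genes, 1.44% of all as lower and the rest as higher. The 95% interval of edgeR lay within 2-fold for 30 of 31 genes (96.8%), Scn9a being the exception, compared with 93.5% of all genes. It lay inside the study's fold threshold for 31 of 31, compared with 96.7% of all genes.

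**Figure D2:**
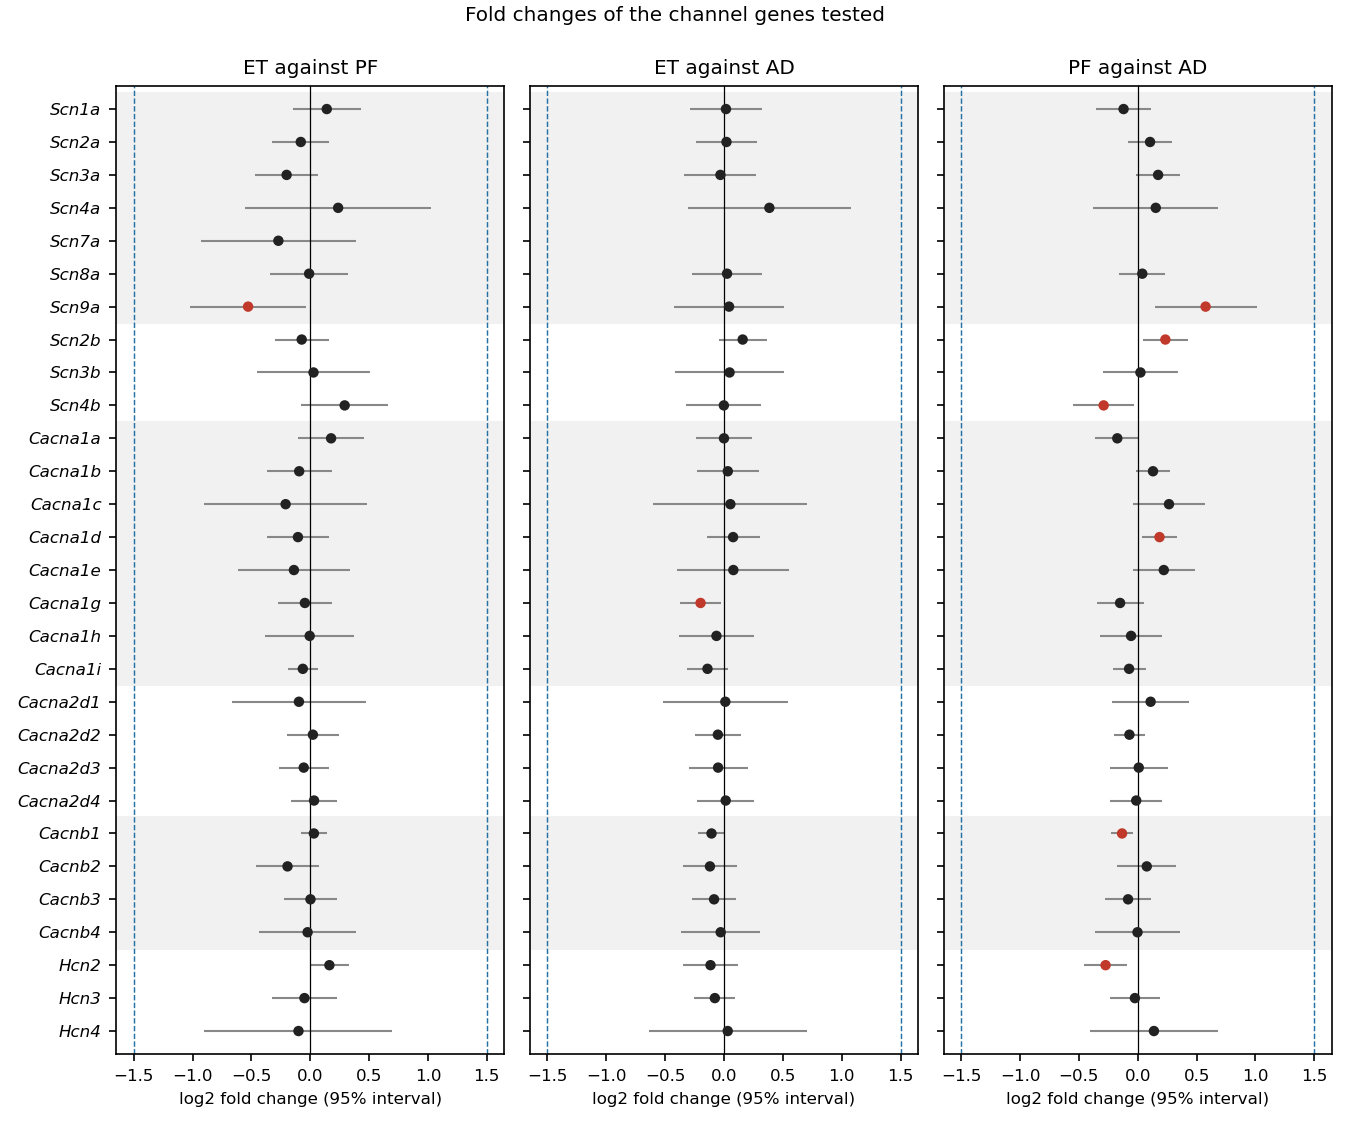
Log2 fold change (points) with its 95% interval (lines) of the channel genes tested in the 3 diet comparisons, grouped by subunit family. Red points have an unadjusted p below 0.05 (1, 1 and 6 of the genes drawn), none of which has an adjusted p below 0.05, and dashed lines mark the study's fold threshold of 1.5 on the log2 scale.

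The sodium channel alpha subunits of the central nervous system are Scn1a, Scn2a, Scn3a and Scn8a. Scn1a, the channel of fast-spiking interneurons that is mutated in Dravet syndrome, measured 130 ± 22.9 CPM in ET (SD, n = 4), 118 ± 14.4 in PF (SD, n = 5) and 128 ± 18.6 in AD (SD, n = 5). Scn2a, of excitatory axons, measured 395 ± 64.2 CPM in ET, 417 ± 35.0 in PF and 388 ± 43.7 in AD. Scn8a, the main channel of the mature axon initial segment, measured 511 ± 118 CPM in ET, 513 ± 67.1 in PF and 501 ± 39.6 in AD. Scn3a, which is best known from the embryonic brain, measured 42.8 ± 8.47 CPM in ET, 49.2 ± 3.12 in PF and 43.6 ± 5.68 in AD. The groups of each of these genes overlapped, and their log2 fold changes between diets lay between -0.20 and 0.17 with adjusted p-values from 0.353 to 1 (edgeR).

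Scn9a, the channel of nociceptors, had the smallest p of any channel gene in ET against PF. It measured 1.18, 1.80, 1.01 and 1.37 CPM in the ET samples, 2.26, 2.10, 2.14, 2.07 and 1.21 CPM in the PF samples, and 1.24, 1.01, 1.28, 1.77 and 1.35 CPM in the AD samples. The ET and AD samples covered about the same range, and 4 of 5 PF samples lay above all of them while PF replicate 6 lay among them. On the log2 scale it differed by -0.53 in ET against PF (SE 0.22, unadjusted p = 0.0376, adjusted p = 0.367 in edgeR) and 0.58 in PF against AD (SE 0.20, adjusted p = 0.149). Without PF replicate 6 the difference from AD was 0.71 with an adjusted p of 0.0189, and leaving out that 1 library brought it past the second rule. ET replicate 2, which was left out, measured 2.35 CPM, above the other ET samples.

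Scn4a and Scn7a were close to 1 CPM, where counting error is large. Scn4a ranged from 0.902 to 3.22 CPM over the 14 samples, and Scn7a from 0.426 to 1.35 CPM.

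Among the sodium channel beta subunits, Scn2b and Scn4b, the subunit tied to resurgent current, had unadjusted p-values below 0.05 in PF against AD in opposite directions. Scn2b measured 515 ± 59.3 CPM in PF and 438 ± 42.2 in AD (SD, n = 5 each), a log2 fold change of 0.23 (adjusted p = 0.197 in edgeR). Scn4b measured 48.4 ± 8.34 CPM in PF and 59.1 ± 6.93 in AD, a log2 fold change of -0.29 (adjusted p = 0.246 in edgeR). Scn3b measured 735 ± 238 CPM in ET, 719.5 ± 143 in PF and 709.7 ± 119 in AD, and its 4 ET samples ranged from 449 to 965 CPM.

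Hcn2 encodes a main HCN channel of the forebrain. It measured 103, 86.9, 83.1 and 96.8 CPM in the ET samples, 77.4, 81.4, 80.1, 84.0 and 90.1 CPM in the PF samples, and 99.98, 97.2, 91.9, 88.3 and 122 CPM in the AD samples. The highest PF sample lay above the lowest AD sample, and otherwise PF was below AD. The log2 fold change of PF against AD was -0.27 (SE 0.08, adjusted p = 0.0963 in edgeR and 0.0447 in DESeq2), and without AD replicate 6, the highest sample, it was -0.19 with an adjusted p of 0.0758. Hcn3 ranged from 12.6 to 18.2 CPM over the 14 samples. Hcn4, the pacemaker channel of heart and thalamus, ranged from 0.941 to 2.83 CPM and was highest of the 14 in ET replicate 3. That library held 193 CPM summed over 11 measured genes of thalamus and habenula, where the other 13 samples held 64.7 to 116 CPM. PF animal 11f5 came next in Hcn4 at 2.61 CPM, and its thalamus and habenula sum was 85.4 CPM. The part of that tissue in the Hcn4 values was not tested.

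The calcium channel beta subunits bind the intracellular side of alpha1. Cacnb1 had the narrowest spread of the 31 channel genes above 1 CPM, with the highest of the 14 samples 1.19 times the lowest. It measured 118, 119.8, 129 and 116 CPM in the ET samples, 118, 115.5, 114, 123 and 119 CPM in the PF samples, and 136, 129.9, 122, 131 and 129 CPM in the AD samples. All but 1 AD sample lay above every PF sample. The log2 fold change of PF against AD was -0.13 (SE 0.04, adjusted p = 0.105 in edgeR and 0.0398 in DESeq2), and the adjusted p was 0.0423 with all 17 samples. Reads of Cacnb1 can be shared with Rpl19, a ribosomal protein gene that overlaps it in the reference gene table, and Cacnb1 has no value in the fit that left overlapping genes out. Cacnb2, Cacnb3 and Cacnb4 had log2 fold changes between -0.19 and 0.08 over the 3 comparisons. Cacnb4, the subunit mutated in lethargic mice, varied from 140 to 242 CPM within the PF group alone.

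The summed oligodendrocyte RNA was lowest in PF, the group in which Hcn2 was also lowest. The summed level of 8 oligodendrocyte genes was 20660 to 26470 CPM in ET, 15070 to 20600 in PF and 17570 to 24790 in AD, so ET and PF did not overlap. Of the 8 genes, 2 were higher in ET than in PF, Ermn among them (log2 fold change 0.38, adjusted p = 0.0484 in edgeR), and 1, Mag, was lower in PF than in AD (-0.40, adjusted p = 0.0366). Of all genes tested, 0.541% were higher in ET than in PF and 0.846% were lower in PF than in AD at that adjusted p. Mog, a myelin surface protein, had its highest mean in PF, at 98.6 ± 11.85 CPM, beside 94.0 ± 11.03 in ET and 89.4 ± 11.09 in AD. The part of oligodendrocytes in the channel values was not tested, and in bulk tissue fewer cells of a type and less RNA per cell cannot be told apart.

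**Figure D3:**
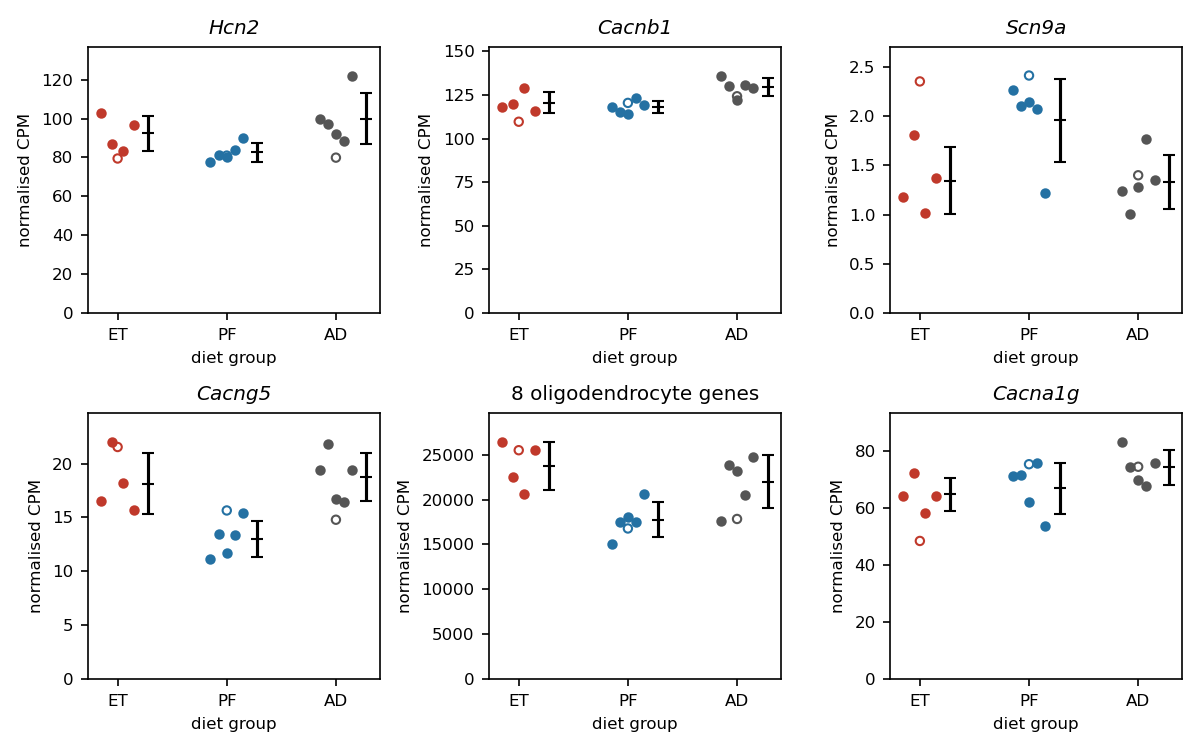
Normalised CPM of Hcn2, Cacnb1, Scn9a, Cacng5 and Cacna1g and the sum over 8 oligodendrocyte genes by diet group. Filled points are the samples compared, open points the 3 left out, and bars the mean and SD (n = 4 ET, 5 PF, 5 AD), and the PF samples of Cacng5 (11.1 to 15.4 CPM) lie below every filled ET and AD point.

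Among calcium channel alpha1 subunits, Cacna1g had the smallest p in ET against AD. It encodes a T-type pore of burst-firing neurons. Cacna1g measured 64.35, 72.1, 58.15 and 64.3 CPM in the ET samples, 71.4, 71.4, 62.1, 75.7 and 53.5 CPM in the PF samples, and 83.3, 74.3, 69.9, 67.6 and 75.85 CPM in the AD samples. The highest ET sample lay above 2 AD samples and the other 3 lay below all of them. ET against AD gave a log2 fold change of -0.20 (SE 0.08, unadjusted p = 0.0288, adjusted p = 1 in edgeR). The other T-type genes overlapped between diets, Cacna1h at 104 ± 22.8 CPM in ET and 109 ± 12.3 in AD, and Cacna1i at 173.5 ± 10.6 CPM in ET and 191 ± 18.04 in AD.

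The presynaptic channels, Cacna1a (P/Q type) and Cacna1b (N type), had log2 fold changes between -0.17 and 0.18 over the 3 comparisons. Cacna1a measured 207 ± 36.4 CPM in ET, 183 ± 23.1 in PF and 207 ± 12.8 in AD. Without PF replicate 3, its highest PF sample at 220.5 CPM, the log2 fold change of PF against AD was -0.25 with an adjusted p of 0.0481, and with it -0.17 with an adjusted p of 0.343 (edgeR). Cacna1b measured 125 ± 26.0 CPM in ET, 133 ± 10.51 in PF and 122 ± 7.79 in AD.

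Cacna1c and Cacna1d form the L-type channels of neurons that couple depolarization to transcription. Cacna1d measured 62.4 ± 11.02 CPM in ET, 67.1 ± 7.09 in PF and 59.1 ± 1.93 in AD, with a log2 fold change of PF against AD of 0.18 (unadjusted p = 0.0207, adjusted p = 0.193 in edgeR). Cacna1c measured 40.7 ± 20.9 CPM in ET, 47.0 ± 10.4 in PF and 39.1 ± 5.29 in AD, and its interval in ET against PF ran from -0.90 to 0.48 on the log2 scale. Cacna1e, the R-type channel, measured 550.2 ± 193 CPM in ET, 605 ± 89.1 in PF and 519.6 ± 76.1 in AD.

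The alpha2delta subunits are extracellular and 2 of them, Cacna2d1 and Cacna2d2, bind gabapentin. Cacna2d1 measured 94.9 ± 36.1 CPM in ET, 101 ± 21.9 in PF and 94.0 ± 14.2 in AD. Cacna2d2, Cacna2d3 and Cacna2d4 had log2 fold changes between -0.07 and 0.03 over the 3 comparisons. Reads of Cacna2d3 and Cacna2d4 can be shared with genes that overlap them, Lrtm1 in the former and Lrtm2 and Adipor2 in the latter. In all, 8 of the 35 channel genes overlap a protein-coding gene in the reference gene table, the others being Cacnb1, Hcn3 (with Pklr), Cacna1c (with Dcp1b), Cacna1h (with Tpsg1), Cacnb3 (with Tuba1c) and Scn10a (with a gene that has no name beyond its locus number).

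Cacna1f, the channel gene an L-type pore like Cacna1d, was counted 171.7 times in AD replicate 6 and at most 3 times in every other library. In CPM these were 14.8 in that library and 0.0239 to 0.225 in the other 16, which lie at or below the value of 3 counts. Lrtm1, inside Cacna2d3, had 131.3 counts in AD replicate 6 and at most 1 in the others, while Cacna2d3 itself was lowest of the 14 in that library at 152 CPM, against 210.3 to 229 in the other AD samples. All 10 pineal and photoreceptor genes were highest in AD replicate 6 among the 14 samples. Tph1, which starts serotonin and melatonin synthesis, stood at 962 CPM there, Sag at 30.2, Asmt at 26.7 and Crx, the photoreceptor and pinealocyte transcription factor, at 15.1, and Aanat at 0.432. The part of pineal tissue in the Cacna1f value was not tested, and the filter on low counts removed Cacna1f from the comparisons.

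The promoters of Cacna1f and Cacna1d are shown because both encode L-type pores and Cacna1f passed 3 counts in 1 library only. Promoters from RefSeq (rat assembly GRCr8, 250 bases before to 50 after a start site) were matched to 22 of the 35 genes, 25 promoters in all. The minus-strand promoter of Cacna1f lies at chrX:17568259-17568558 and that of Cacna1d, also on the minus strand, at chr16:5527500-5527799. The capitals mark CG dinucleotides.
Cacna1f: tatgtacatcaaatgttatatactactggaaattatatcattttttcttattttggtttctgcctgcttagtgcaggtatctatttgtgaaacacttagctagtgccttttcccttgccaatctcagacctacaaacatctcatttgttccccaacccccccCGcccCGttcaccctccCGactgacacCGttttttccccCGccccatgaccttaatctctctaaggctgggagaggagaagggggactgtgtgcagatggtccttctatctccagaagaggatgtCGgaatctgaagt
Cacna1d: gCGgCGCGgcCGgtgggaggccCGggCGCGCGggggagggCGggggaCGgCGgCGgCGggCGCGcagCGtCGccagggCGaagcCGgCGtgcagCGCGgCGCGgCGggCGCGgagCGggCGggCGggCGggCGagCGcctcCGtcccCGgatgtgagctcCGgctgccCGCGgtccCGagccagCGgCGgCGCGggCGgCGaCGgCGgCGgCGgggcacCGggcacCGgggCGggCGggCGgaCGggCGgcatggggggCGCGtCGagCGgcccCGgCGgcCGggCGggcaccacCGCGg
The Cacna1f promoter holds 6 CG dinucleotides at 46.0% GC and that of Cacna1d 66 at 88.7% GC. Both values of Cacna1d equal the maximum over all 33469 promoters. The promoter of Cacna1c, another L-type gene that passed the filter, holds 4 CG dinucleotides at 51.7% GC, fewer than that of Cacna1f. The 3 promoters of genes removed by the filter in ET against PF (Cacna1f, Scn10a and Scn11a) held 6 to 11 CG dinucleotides, the 22 of genes that passed it 2 to 66 with a median of 31, and the median over all 33469 promoters was 7. The motif TAATCC, the core bound by Crx, was searched on both strands and is in neither sequence, and 7.17% of all promoters hold it. The variant TAATCT is in the Cacna1f promoter once, at bases 215 to 220 of the sequence, and 8.70% of all promoters hold it on either strand. The Scn11a promoter also holds TAATCT once, and Scn11a stood at 0.0576 CPM in AD replicate 6. A match is a description of the letters only.

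**Figure D4:**
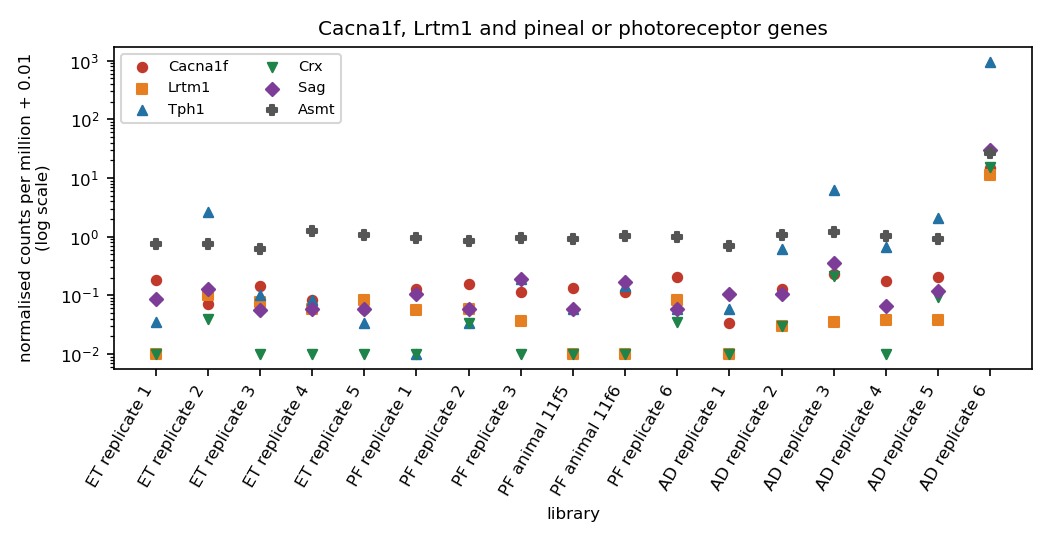
Normalised CPM plus 0.01 (log axis) of Cacna1f, of Lrtm1, which lies inside Cacna2d3, and of 4 pineal or photoreceptor genes in each of the 17 libraries. AD replicate 6 holds the highest point of each gene, with Cacna1f at 14.8 CPM.

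The spread within a diet group followed single libraries for some channel genes, but not for all. Cacnb4, for example, held 242 CPM in PF replicate 2 and 239 CPM in PF animal 11f5, and 139.9 to 177 CPM in the other PF samples compared. Of the 31 channel genes above 1 CPM, 22 varied by less than 2-fold over the 14 samples, and the coefficient of variation ran from 4.88% to 99.0% in ET, 2.44% to 38.4% in PF and 2.16% to 52.3% in AD. ET replicate 1 was the lowest of the 14 samples for 10 of the 31 genes (32.3%), where it was the lowest for 19.0% of the 15361 genes above 1 CPM. These were Cacna1b, Cacna1c, Cacna1d, Cacna1e, Cacna1h, Cacna2d1, Scn3a, Scn4a, Scn8a and Scn3b. ET replicate 3 was the highest for 11 genes (35.5%), where it was the highest for 2304 of the 15361 genes above 1 CPM. Cacna1c measured 17.4, 67.6, 43.2 and 34.5 CPM in the ET samples, Cacna2d1 48.1, 135, 104 and 92.6 CPM, and Cacna1e 328, 782, 613 and 478 CPM. ET replicate 1 was the lowest ET sample for each of these 3 and ET replicate 3 the highest.

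AD replicate 6 deviated from the median of the 14 samples in a similar pattern to ET replicate 1. Over the 31 channel genes, the deviations of these 2 libraries (log2 of CPM + 0.5) had the same sign for 24 and a Pearson correlation of 0.71, against 0.36 over 15361 genes. Genes of a library are not independent replicates, and all points share these libraries and the median they are measured from. Marker sums of several cell types stood at the edge of the group in both libraries, though not always on the same side. Over 8 neuron genes ET replicate 1 held 7195 CPM, the highest of the 14 samples. AD replicate 6 held 6553 CPM over the same genes, the lowest of the AD samples compared. Over 7 granule cell genes ET replicate 1 held 240.0 CPM and AD replicate 6 held 304 CPM, the lowest values of their groups, where the other ET and AD samples compared held 324 to 468 CPM. Of these 7 genes, 3 were lowest of the 14 samples in ET replicate 1. One was Prox1, the dentate granule cell transcription factor, at 8.22 CPM there and at 31.3 to 51.0 in the other ET samples used. Npnt went the other way, at 16.16 CPM in ET replicate 1 and 12.63 to 15.55 in the other ET samples used. Over 6 astrocyte genes ET replicate 1 held 3127 CPM and AD replicate 6 held 3486 CPM, and over 8 oligodendrocyte genes they held 26470 and 24790 CPM, the lowest and the highest values of their groups respectively. Over 9 interneuron genes ET replicate 1 held 695 CPM, above the other 13 samples, with 4 of the 9 genes highest there and Gad2 lowest, while AD replicate 6 held 629.8 CPM, inside the range of the other AD samples. The part of these cell types in the channel values was not tested. Without both libraries together the count of channel genes called stayed at 0 in each diet comparison and under both rules (edgeR).

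**Figure D5:**
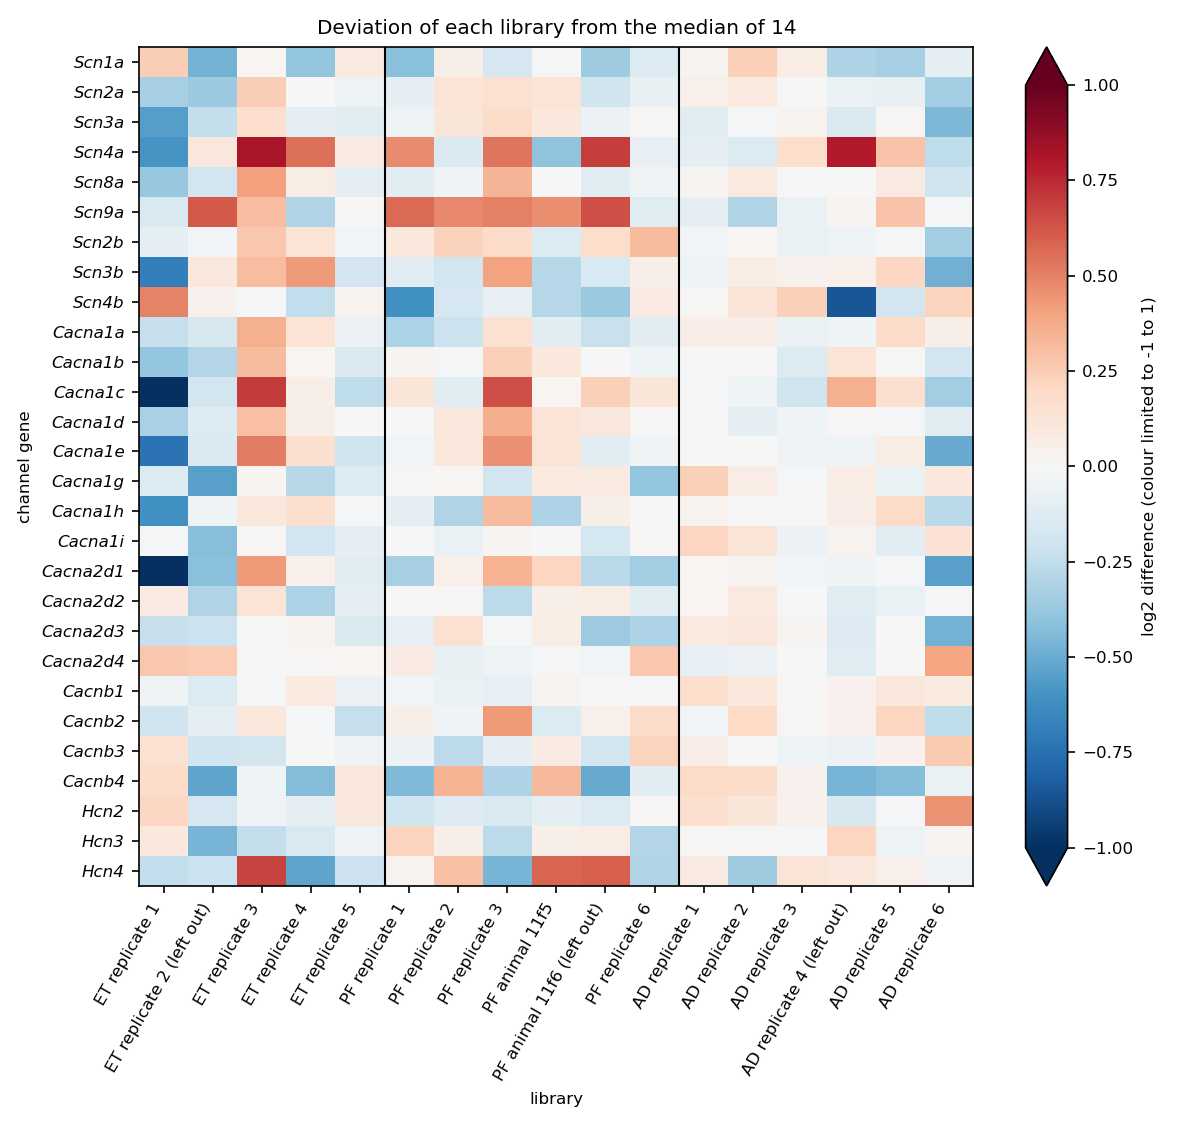
Log2 difference of each library from the median of 14 samples for 28 channel genes that averaged at least 1 CPM, with colours limited to -1 and 1 and black lines between diet groups. ET replicate 1 is the lowest of the 14 samples for 10 of the genes drawn and ET replicate 3 the highest for 10.

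The channels act with partner proteins, and 41 genes were listed for these, among them the calcium channel gene Cacna1s that the rule left out. Of the list, 39 genes were in the table and 36, without Cacna1s, were tested. Of these, 1 of 36 passed an adjusted p below 0.05 in PF against AD, where 5.17% of all genes did, and 0 of 36 passed in either comparison with ET (edgeR). DESeq2 called 2 of 36 in PF against AD, Cacng5 and Cacng7, where it called 5.88% of all genes. It called 1 of 36, Cacng5, in ET against PF, where it called 4.62% of all genes, and 0 of 36 in ET against AD, where it called 0.0698%. An unadjusted p below 0.05 was reached by 2 of 36 (5.56%) in ET against PF, 1 of 36 (2.78%) in ET against AD and 5 of 36 (13.9%) in PF against AD, against 11.9%, 2.74% and 16.4% of all genes. The gene was Cacng5, a transmembrane AMPA receptor regulatory protein of the calcium channel gamma family. Cacng5 measured 16.5, 22.05, 18.2 and 15.7 CPM in the ET samples, 11.1, 13.4, 11.7, 13.4 and 15.4 CPM in the PF samples, and 19.4, 21.8, 16.75, 16.5 and 19.4 CPM in the AD samples. All 5 PF samples lay below every ET and AD sample compared, while AD replicate 4, which was left out, measured 14.8 CPM, below the highest PF sample. The log2 fold change of PF against AD was -0.53 (SE 0.10, adjusted p = 0.00747 in edgeR), short of the study's fold threshold, and that of ET against PF was 0.48 (SE 0.12, adjusted p = 0.0575). Its relatives Cacng7 and Cacng4 had log2 fold changes of -0.18 and -0.14 in PF against AD with adjusted p-values of 0.0973 and 0.297. The anchoring and modulating partners of sodium channels, the ankyrins, Nfasc, Nrcam and the Fgf11 to Fgf14 group, gave no call.

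The sexes were compared in the 9 ET and PF samples, 4 males and 5 females, with diet in the model. At an adjusted p below 0.05, 0 of 32 channel genes were called in edgeR and 0 in DESeq2, against 0.0436% of 16068 genes, and 0 of 32 had an unadjusted p below 0.05 in either tool, against 1.87% of all genes in edgeR. The smallest p was that of Scn9a, with a log2 fold change of males against females of -0.38 (unadjusted p = 0.0849, adjusted p = 1 in edgeR). The interaction of sex and diet, that is, whether the difference between males and females was unequal in ET and PF, called 0 of 32 channel genes in edgeR and in DESeq2, and 0% of 16484 genes in edgeR. An unadjusted p below 0.05 was given by 0 of 32 channel genes in either tool, against 1.40% of all genes in edgeR. The smallest p of the interaction was that of Cacna2d2, at a log2 difference of -0.37 (unadjusted p = 0.0614, adjusted p = 1 in edgeR).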

How the data were processed

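Libraries were stranded mRNA, sequenced in pairs. The authors used fastp for trimming, Bowtie2 2.4.2 for mapping to mRatBN7.2, and featureCounts 2.0.1 for counting fragments on exons (versions from the submitters' processing notes) at a minimum mapping quality of 10, with reads allowed to count for several features. Bowtie2 does not split reads over introns, so fragments across exon junctions may be missed. The values they deposited are expected counts, the mean fragment number of 3 technical replicates for each gene, without normalization.

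Averages were rounded to whole numbers. Low genes were removed with filterByExpr, libraries scaled by TMM, and groups compared with edgeR 4.0.16 in R 4.3.3, adjusting p-values by Benjamini-Hochberg over all genes tested. The standard error is the absolute log2 fold change divided by the square root of F, and 95% intervals use the t quantile of the fit. The edgeR and DESeq2 steps were checked on simulated counts for ET against PF and PF against AD. CPM were scaled over the 17 samples. Depth was 10853947 to 17498392 fragments. The channel genes and the lists of partners and markers were chosen with earlier results of these data known. Values of 3 channel genes and 1 marker gene are not reported here, though they stay in the counts. Named with each sample's value are the genes with the smallest p in a diet comparison and called partners. Hcn2, Cacnb1, Cacna1c, Cacna2d1, Cacna1e and the genes singled out for 1 library were chosen after their values were seen. PF males 11f5 and 11f6 carry the animal names of the count table because labels give no number for either. Symbols, overlaps and promoters come from RefSeq tables of GRCr8, another assembly than the authors', and no coordinate of the count table is used. Alternatives were DESeq2 1.42.0, median-of-ratios scaling, no filter, sums of technical replicates, all 17 samples, left hippocampus only, sex as a covariate, 1 fit of 3 groups, the replicate number as a block, a fold change above 1.5, leaving out overlapping genes and leaving out each replicate. Plots and other values used Python 3.11.15, numpy 2.4.6, pandas 2.3.3, scipy 1.17.1 and matplotlib 3.10.9.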

Additional observations from a re-analysis of the deposited data

Results flagged for a closer look

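Single samples were flagged where 1 sample's gap to its nearest neighbour took more than the critical share of its diet group's range (Dixon's criterion at 95%, which chance alone meets in about 1 of 20 groups). In all, 96 groups were checked and 10 values were flagged, 6 of them AD replicate 6. That library was lowest for Cacna1e (386 CPM, against 535 to 579 in the other AD samples), Cacna2d1 (68.7, against 98.4 to 102), Cacna2d3 (152) and Scn2b (365, against 444 to 471), and highest for Cacna1f (14.8) and Cacna2d4 (58.0, against 41.4 to 44.1). ET replicate 1 was highest for Cacna2d4 (53.1, against 43.8 to 44.5). PF replicate 3 was highest for Cacna1c (65.0, against 38.4 to 45.0) and Scn8a (632, against 464 to 497), and PF replicate 6 was lowest for Scn9a (1.21).

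Of the 3 samples left out of the comparisons, AD replicate 4 had Scn11a at 0.308 CPM, more than 2 times the highest other AD sample (others 0.0239 to 0.138) and close to the value of 3 counts.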

How the results depend on the processing

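The counts of channel genes called were 0 in edgeR and stayed at 0 under every alternative run for the study's threshold, for ET against PF and ET against AD at an adjusted p below 0.05, and for the sexes and their interaction with diet. In PF against AD at an adjusted p below 0.05 the count rose from 0 to 3 with DESeq2 (Hcn2 and Cacnb1 among them), to 1 with all 17 samples (Cacnb1) and to 1 in the left hippocampus only, while the share of all genes called went from 5.17% to 5.88%, 6.19% and 5.55%. Leaving out each replicate in turn gave 0 to 2 genes, with Cacna1a called without PF replicate 3 and Scn9a among the 2 called without PF replicate 6, where 4.49% and 7.31% of all genes were called. The fit with the replicate number as a block also drops PF animal 11f5, which has no number, and gave a count of 1 (Hcn2, adjusted p = 0.034) with 4.48% of all genes called, while leaving out that animal alone gave 0 (Hcn2, adjusted p = 0.162) with 4.33% called. Same-numbered samples correlated between -0.08 and 0.11 over 4 pairs of PF and AD, between -0.23 and 0.16 over 3 pairs of ET and AD, and at 0.01 and 0.56 in the 2 pairs of ET and PF, in their deviations from the group means. Nothing in the labels ties a number to a shared litter or day, so the numbers were not taken as a pairing, and the block changed no other count of channel genes. No direction turned for Hcn2, Cacnb1, Cacna1a or Cacng5 in PF against AD, for Scn9a in PF against AD and ET against PF, or for Cacna1g in ET against AD, under any alternative that gave a value, and Cacnb1, Cacna1a and Scn9a had none with overlapping genes left out. The log2 fold change of Cacng5 in PF against AD ranged from -0.60 to -0.44 with adjusted p-values of 2.28e-04 to 0.0266 over 21 alternatives. The drop of ET replicate 1 and AD replicate 6 together was added after the data were seen. Channel genes near 1 CPM are limited by counting error, and littermates of 1 dam per diet do not measure the spread between litters.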

Other observations

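The 3 samples left out of the comparisons held the 3 lowest values of Cacnb4 among the 17, at 132, 134 and 138 CPM, where the 14 samples ranged from 139.9 to 242 CPM. Kcne2, a potassium channel subunit that can join HCN channels and is also abundant in choroid plexus, stood at 45.4, 58.4 and 59.6 CPM in them and at 1.10 to 11.7 CPM in the 14. Scn4b was lowest in AD replicate 4, at 30.3 CPM, and Cacna1g and Cacna1i were lowest in ET replicate 2, at 48.4 and 135.0 CPM. The same 3 samples had the highest choroid plexus sums. Among the 14, however, PF replicate 2 had the highest such sum, 1229 CPM, and also the highest Cacnb4. PF replicate 1 had the lowest Cacnb4 of the 14, with a choroid plexus sum of 65.25 CPM. The part of that tissue in the values of the 3 samples left out was not tested.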
